A study of Mus musculus with 2 samples.

Results

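Astrocytes are the glial cells that border the leptomeninges: their end-feet, under the pia, form the outer limit of the brain. They clear glutamate from synapses through the transporters Slc1a2 and Slc1a3, take up potassium, move water through aquaporin-4, and secrete lipoproteins and matrix proteins. A peeled sheet of meninges can carry whole glial cells, torn processes and free brain RNA, and a droplet library counts all of these under cell barcodes. The barcodes described here were chosen on transcripts of 5 genes: Slc1a2, the main glutamate transporter of astrocytes; Ntsr2, a neurotensin receptor found in astrocytes; Bcan, which encodes the matrix proteoglycan brevican; Gria2, an AMPA glutamate receptor subunit; and Meg3, a long non-coding RNA abundant in neurons. The last of these are not astrocyte markers, and Bcan is also made by oligodendrocyte precursors.

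A barcode was a member when the 5 genes summed to at least 5 UMIs (unique molecular identifiers, 1 per captured transcript), with at least 1 UMI of Slc1a2, Ntsr2 or Bcan. The sum also had to reach that of 6 genes of neuronal processes and synapses (Nrgn, Camk2a, Ddn, Kif5a, Pcsk1n and Snap25), and Mrc1, Cldn5, Slc7a11 and Gjb2, genes of other cells of the tissue, together had at most 3 UMIs. Only barcodes with at least 400 genes and at most 10% of UMIs from mitochondrial genes were eligible. Of 6026 such barcodes, 100 were members.

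The study made 2 droplet libraries, R1 and R2, from the leptomeninges of adult Pdgfra-H2BGFP mice of both sexes at 3 months of age, a reporter line that carries a nuclear green fluorescent protein under Pdgfra in both libraries. The sheets were peeled by hand from the cerebral hemispheres, digested, and loaded to recover at most 5000 cells per sample. Both libraries belong to 1 group, so there is no treatment or genotype to compare. Nothing in the labels states if R1 and R2 are different animals, so p-values cannot be read as covering the spread between animals. They rest on how far differences between classes of barcode vary between these 2 libraries. That estimate is shared over all classes in a fit and is not that of the members alone.

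R1 held 7276 barcodes with 14586462 UMIs in all and R2 held 6743 with 12359040. After the filter, 2988 and 3038 barcodes remained. The libraries shared 93 barcode sequences, of which 62 in R1 and 63 in R2 were endothelial-like and 0 were members. Doublets were not removed.

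R1 gave 56 members of 2988 kept barcodes, a share of 1.87% (exact Clopper-Pearson 95% interval 1.42% to 2.43%). R2 gave 44 of 3038, or 1.45% (1.05% to 1.94%), so the 2 intervals overlap. The mean share was 1.66% ± 0.30 (SD, n = 2 libraries). These intervals cover counting error only. Members were shallow: the median was 1191.5 UMIs and 773 genes in R1 and 1257.5 UMIs and 792 genes in R2. A few barcodes carried much of the sum: the deepest held 8.39% of all member UMIs in R1 and 17.8% in R2, and the 3 deepest held 22.6% and 40.2%.

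Many members sat close to the threshold. The 5-gene sum had a median of 8 UMIs in R1 and 9 in R2, with highest values of 96 and 136. In R1, 12 members stood at exactly 5 UMIs and 16 barcodes that met every other condition stood just outside at 4, and in R2 these counts were 8 and 9. The 5-gene sum equalled the neuronal sum in 2 and 1 members, while 1 and 2 barcodes fell outside because the neuronal sum was 1 UMI higher. For the 4 genes the rule limited, 6 and 10 members held 3 UMIs and 0 and 2 barcodes were outside at 4.

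Slc1a2 was the most widely seen gene of the rule. It was seen in 54 of 56 members of R1 and 42 of 44 of R2, with 295 and 326 UMIs. Ntsr2 was seen in 21 and 24 members and Bcan in 24 and 28. In 27 members of R1 and 11 of R2, Slc1a2 was the only one of these 3 markers, while all 3 were present in 14 and 18. Meg3 was concentrated: 19 and 6 members held its 312 and 142 UMIs, and a single R2 barcode held 120 of the latter. Because these genes chose the barcodes, their levels are a description and carry no test. In mouse build GRCm38, Slc1a2 lies on chr2:102658659-102790784 (plus strand), Ntsr2 on chr12:16653382-16660227 (plus), Bcan on chr3:87987531-88000230 (minus), Gria2 on chr3:80681450-80802835 (minus) and Meg3 on chr12:109541001-109571726 (plus). The first 4 are protein-coding and Meg3 is a long intergenic non-coding RNA.

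Most Slc1a2 transcripts of the libraries lay elsewhere. The members held 6.98% of the Slc1a2 UMIs of all kept barcodes in R1 and 15.2% in R2. The largest share lay in a class called neuropil-transcript barcodes here (280 in R1, 90 in R2), in which the 6 neuronal genes above led: it held 61.3% and 36.1%. Neuropil is the felt of axons, dendrites and fine astrocyte processes between cell bodies. For Gfap, the intermediate filament of fibrous and subpial astrocytes, members held 3.14% and 4.78%, against 62.3% and 47.7% in the neuropil-transcript class. For Aqp4, the water channel of astrocyte end-feet, they held 11.8% and 12.8%. Of barcodes with at least 5 UMIs of Slc1a2, Ntsr2 and Bcan, 43 of 238 in R1 and 39 of 110 in R2 were members. The neuronal sum was above the 5-gene sum in 182 and 54 of them, and 13 and 17 had too many UMIs of the 4 limited genes.

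**Figure D1:**
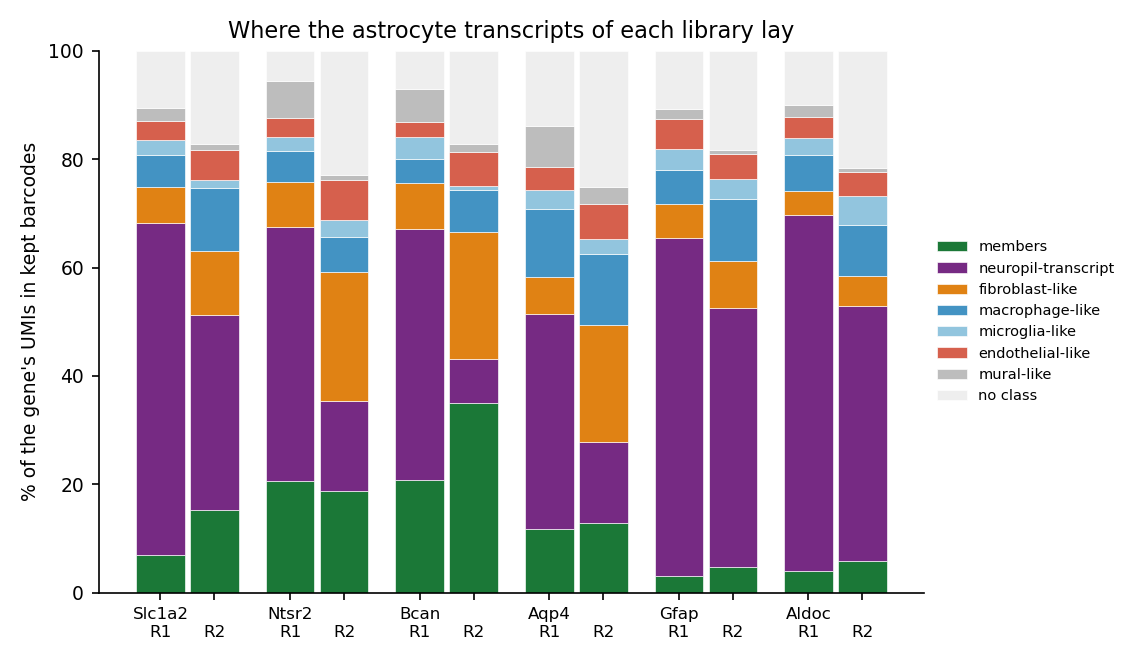
Bars give the share (%) of each gene's UMIs in kept barcodes that lay in members and in each other class, for R1 and R2. The members hold 6.98% and 15.2% of Slc1a2 UMIs and 3.14% and 4.78% of Gfap UMIs, and the neuropil-transcript class holds the largest share of both.

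Other classes carried some of these transcripts too. Slc1a2 was seen in 38.2% and 32.1% of macrophage-like barcodes and in 29.1% and 26.1% of fibroblast-like ones. In macrophage-like barcodes, which should lack them, Slc1a2, Ntsr2 and Bcan made up 0.0190% of UMIs in R1 and 0.0188% in R2. In members the median was 0.365% and 0.567%, but the lowest were 0.0528% and 0.0207%, the latter near the macrophage-like value. Levels are given in CPM, a gene's UMIs scaled to a common total per class and library. Slc1a2 stood at 2612 and 3078 CPM in members, 2924 and 3259 in neuropil-transcript barcodes and 172 and 166 in macrophage-like barcodes. Ntsr2 and Bcan stood higher in members than in both of those classes. Ntsr2 stood at 354 and 387 CPM against 103 and 151 in the neuropil-transcript class and 7.55 and 9.32 in macrophage-like barcodes. Bcan stood at 629 and 850 against 177 and 88.3, and 10.3 and 13.3. Ptgds, a secreted enzyme that meningeal fibroblasts make in large amounts, was present in every member, at 21071 and 34266 CPM. It stood at 66799 and 117556 in fibroblast-like and at 8567 and 14089 in macrophage-like barcodes. What part free RNA has in the member values was not tested.

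The label, barcodes with astrocyte transcripts, covered 4 kinds of barcode. They were separated here after the values were seen, so the sets are described without a test. Malat1, a nuclear non-coding RNA, marked whether a barcode carried nuclear transcripts. It took a median of 3.59% of UMIs in members of R1 and 5.33% in R2, and reached 1% in 37 of 56 and 32 of 44. In the neuropil-transcript class only 33 of 280 and 12 of 90 reached 1%, and in the fibroblast-like class 405 of 498 and 269 of 468 did.

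The largest set, 49 members (23 in R1, 26 in R2), was led by Slc1a2, Ntsr2 and Bcan and had at least 1% Malat1. Ntsr2 was seen in 15 of 23 and 18 of 26, Bcan in 14 and 22, Slc1a3 in 13 and 17, Aqp4 in 11 and 11, and Gfap in 11 and 14. Every one of them had a UMI of at least 1 of the 15 astrocyte markers outside the rule. That list also holds Aldoc, Aldh1l1, Mlc1 and the connexins Gja1 and Gjb6. It summed to 4301 and 5116 CPM here and to 3383 and 2634 in fibroblast-like barcodes, so 1 such UMI does not tell the 2 apart. Myoc, a secreted protein of superficial astrocytes, was seen in 8 and 17, at 284 and 1525 CPM. OPC markers (oligodendrocyte precursor cells: Pdgfra, Olig1, Sox10 and others) summed to 1 and 5 UMIs, and the neuronal list to 51 and 31, in 18 of 23 and 12 of 26 barcodes. Of the latter, Snhg11 gave 27 and 22 UMIs and Syt1 1 and 1. Fibroblast markers summed to 83 and 80 UMIs in 14 of 23 and 21 of 26 barcodes, and 1 barcode of R1 held 33. At 1812 and 1968 CPM, they stood between fibroblast-like (5506 and 4865) and macrophage-like barcodes (345 and 435). What part doublets or free RNA have in this was not tested.

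A second set of 24 (16 and 8) was led by the same genes but had under 1% Malat1. Slc1a2 stood at 5819 and 3626 CPM in it and was seen in all 16 and 8. A single barcode held 13180 of the set's 22617 UMIs in R2, so it weighs on every R2 level given here. The same barcode held 128 UMIs of the antigen-presentation gene H2-Aa. Ntsr2 was seen in 3 of 16 and 5 of 8, and Aqp4 in 3 and 0. Mt3, a metallothionein of astrocytes and neurons, stood at 1887 and 2255 CPM, against 852 and 394 in the Malat1-rich set. Aldoc was also higher here, at 944 and 1017 against 764 and 369. The 15 astrocyte markers outside the rule summed to 5032 and 2520 CPM here and 4301 and 5116 in the Malat1-rich set, so the order differed between the libraries. Acsl3, a long-chain acyl-CoA synthetase, had 0 UMIs in this set and 23 and 24 in the Malat1-rich set. The mitochondrial share had a median of 7.13% and 8.62% here and 5.08% and 3.29% there.

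In the set of 17 led by Meg3 or Gria2 (12 and 5), transcripts of neurons prevailed. Its barcodes had at least as many UMIs of Meg3 and Gria2 together as of Slc1a2, Ntsr2 and Bcan. That condition formed the set, so its levels of these genes are a description and no evidence of its kind. Meg3 stood at 16037 and 16499 CPM, against 65.5 and 49.2 in the Malat1-rich astrocyte set. Snhg11, a non-coding RNA of neurons, stood at 3869 and 10402. It is not confined to them here, with 569 and 680 in fibroblast-like barcodes and 590 and 541 in the Malat1-rich astrocyte set. The synaptotagmin gene Syt1 stood at 1065 and 3706 in the Meg3- or Gria2-led set. A single R2 barcode held 81 of this set's 87 Snhg11 UMIs and 28 of the 31 of Syt1. The neuronal list summed to 8747 and 21521 CPM, and 1 R2 barcode held 159 of its 180 UMIs there. Astrocyte transcripts were present too. Slc1a2 was seen in 11 of 12 and 5 of 5 barcodes, at 1121 and 1076 CPM. The 15 astrocyte markers outside the rule summed to 841 and 2033 CPM. Aqp4 had 0 and 1 UMI in the set and Bcan 3 and 0. Of these 17 barcodes, 16 had at least 1% Malat1. The name astrocyte alone does not describe them, and they are called Meg3- or Gria2-led below.

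The last 10 (5 and 5) were rich in RNA of another type. This was set by over 10% haemoglobin or at least 20 UMIs of the OPC, oligodendrocyte and neutrophil lists together. Other lists were not used, so members outside these 10 could hold much of them, such as 33 fibroblast UMIs in 1 barcode of R1. Haemoglobin took 91.7%, 82.1% and 40.2% of the UMIs in 3 R1 barcodes and 81.5% in an R2 barcode. Together these 4 held 98.4% of the members' haemoglobin UMIs, and the other 96 had a median of 0.292%. OPC markers reached 96 and 22 UMIs in 2 barcodes of R1. The deepest barcode of R2, with 18875 UMIs, held 66 OPC and 646 oligodendrocyte UMIs and 0 of Slc1a2. Oligodendrocyte markers reached 33 and 20 UMIs in another 2 barcodes of R2, and the neutrophil genes S100a8 and S100a9 with others reached 289 in 1.

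**Figure D2:**
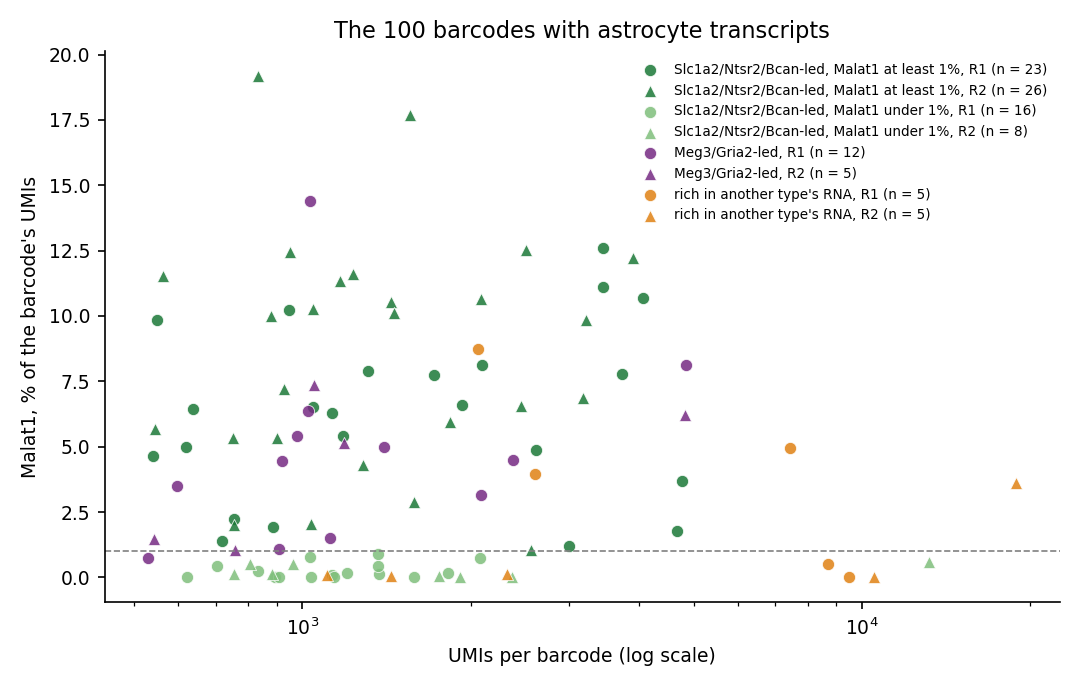
Each point is 1 member, placed by its UMIs (log scale) and by the share of them from Malat1 (%), coloured by set, with circles for R1 and triangles for R2. The dashed line marks 1%, and 49 members led by Slc1a2, Ntsr2 and Bcan lie above it and 24 below.

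**Figure D3:**
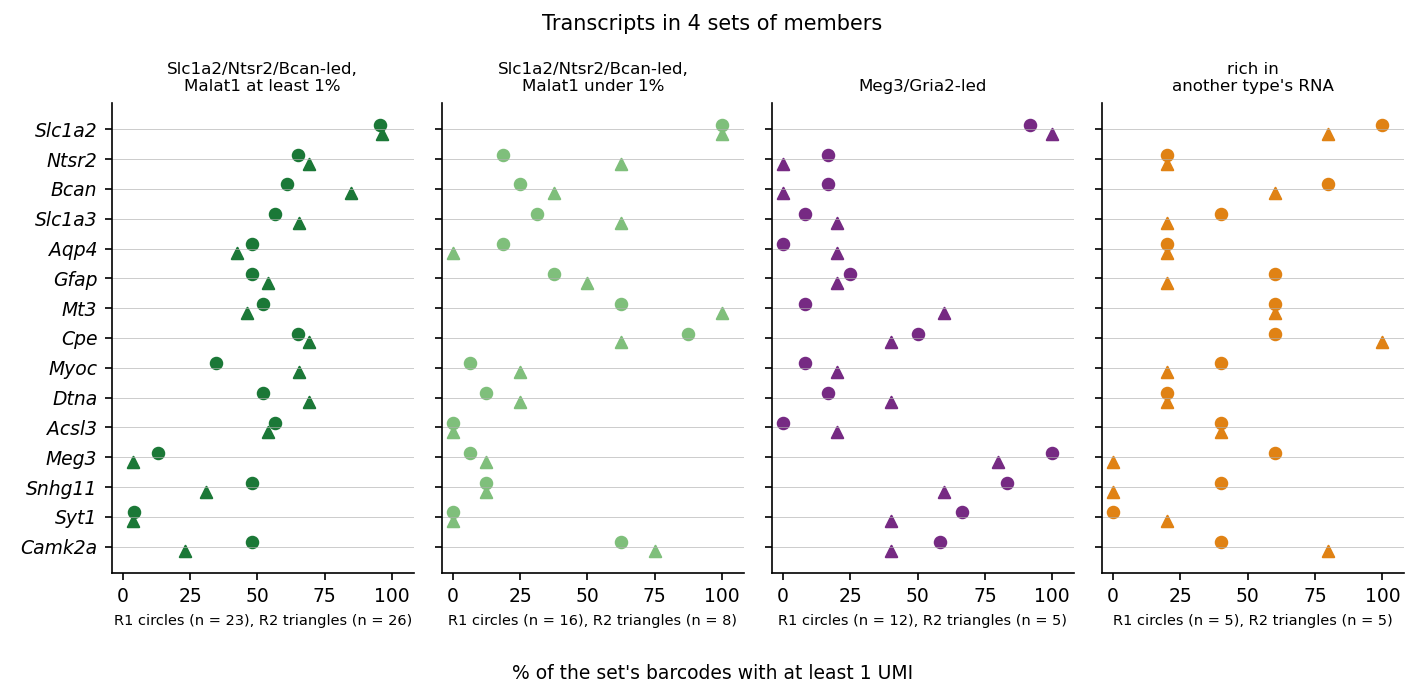
Points give the share (%) of a set's barcodes with at least 1 UMI of each gene, by library. Meg3, Snhg11 and Syt1 stand highest in the Meg3- or Gria2-led set, which was formed on Meg3 and Gria2. Acsl3 is at 0 in the Malat1-poor astrocyte set of both libraries.

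Markers of other cell types were at low levels in most members, outside the 10 barcodes above. Neuronal markers were an exception, with 267 and 311 UMIs in 45 and 26 members, and fibroblast markers were another. Over all members, the dividing markers had 0 UMIs in both libraries and the ependymal markers 0 and 1. Choroid plexus markers had 3 and 0 UMIs and Cajal-Retzius markers 1 and 20, of which 1 barcode held 17. T cell markers had 18 and 0 UMIs, of which 1 barcode held 16. Inhibitory neuron markers had 6 and 34, of which 1 barcode held 31. Markers of microglia summed to 39 and 17 UMIs, at 345 and 161 CPM against 13835 and 12487 in microglia-like barcodes. Fibroblast markers summed to 133 and 102 UMIs, at 1178 and 963 CPM against 5506 and 4865 in fibroblast-like barcodes, and were seen in 34 and 31 members. Macrophage markers summed to 19 and 10 UMIs, endothelial markers to 22 and 20, and mural markers to 52 and 42.

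The first comparison asked how members differed from the neuropil-transcript barcodes, which held more of the Slc1a2 transcripts. Members carried more nuclear RNA and less metallothionein and Gfap. UMIs were summed per library and class, and all classes entered one fit of edgeR's quasi-likelihood test with library as a block. Adjusted p-values below are from this test, with Benjamini-Hochberg adjustment over all genes tested. Genes of the rule and of the class sums were left out. The rule did not read the genes tested here, but it chose barcodes on genes that travel with them, so the test describes the sets so chosen. Of 11613 genes, 479 were higher in members (4.12%) and 1386 lower (11.9%). The balance rests on scaling. With library totals in place of TMM factors, the numbers were 2062 and 613, and the median log2 fold change over all genes moved from -0.13 to 0.75. All 479 higher calls held on that scale and 613 of the lower ones did. On the library-total scale 5 of the 15 astrocyte markers below were higher and 2 lower, as were 3 and 0 of 3 connexins, 6 and 0 of 14 receptors, 8 and 2 of 19 adhesion genes, 5 and 1 of 16 matrix genes, 4 and 4 of 17 lipid genes, 5 and 0 of 13 genes of water and ion balance, and 4 and 0 of 15 transcription factors. The nuclear RNA, energy and neuronal lists kept their direction. CPM values are on the scale of library totals.

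All 5 tested nuclear RNAs were higher in members. Malat1 stood at 41965 and 45144 CPM against 6152 and 4769, and rose by 2.14 ± 0.26 on the log2 scale (SE, adjusted p = 1.78e-07). Snhg11 stood at 956 and 1039 against 65.5 and 29.4 (log2 fold change 3.29 ± 0.33, adjusted p = 7.98e-09). A single Meg3- or Gria2-led barcode held 81 of its 110 UMIs in R2, and with only the members led by Slc1a2, Ntsr2 and Bcan the fold change was 1.73 (adjusted p = 0.000995). Kcnq1ot1, an antisense nuclear RNA, stood at 832 and 595 against 75.6 and 46.3 (2.58 ± 0.28, adjusted p = 2.70e-08). For these the member values lay above both neuropil-transcript values in each library. Among Malat1-rich barcodes of every class alone, an alternative chosen after seeing the data, Snhg11 and Kcnq1ot1 were still called, with 2 of 5 nuclear RNAs higher.

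Of 15 astrocyte markers outside the rule, 0 were higher and 3 lower, with a median log2 difference of -0.27 beside -0.13 over all genes. Gfap stood at 283 and 397 CPM in members and 717 and 1762 in the neuropil-transcript class. It fell by 2.58 ± 0.25 on the log2 scale (adjusted p = 5.04e-09). Aldoc, the brain aldolase of astrocytes, stood at 558 and 472 against 1137 and 1682 (-2.25 ± 0.25, adjusted p = 5.13e-08). Mlc1, a membrane protein of end-feet, was the third lower gene (-1.28 ± 0.39, adjusted p = 0.0210), and its call was lost with library totals (-0.42, adjusted p = 0.50). Among Malat1-rich barcodes of every class, Gfap and Aldoc were at -0.23 (adjusted p = 0.86) and -0.64 (adjusted p = 0.42), and neither call remained.

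For Aqp4 and Slc1a3 the call depended on the scale. Aqp4 stood at 150.5 and 264 CPM in members, above 64.3 and 139 in the neuropil-transcript class in each library. The test gave a log2 difference of 0.20 ± 0.36 (adjusted p = 0.78) with TMM and 1.04 (adjusted p = 0.0327) with library totals. After thinning each barcode to 500 UMIs, Aqp4 was seen in 14.3% and 20.5% of members and 3.57% and 2.22% of neuropil-transcript barcodes. The background in macrophage-like barcodes was 0.442% and 2.01%, and the unthinned shares were 26.8% and 29.5% for members and 15.4% and 26.7% for the neuropil-transcript class. Median depths were 1191.5 and 1257.5 UMIs in members, 2426 and 2313 in the neuropil-transcript class and 1842 and 1541.5 in macrophage-like barcodes. Slc1a3, the glutamate transporter GLAST, was at -0.03 ± 0.25 (adjusted p = 0.96) with TMM and 0.80 (adjusted p = 0.0272) with library totals.

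Enzymes of energy and detoxification were mostly lower: 10 of 17 were lower and 0 higher, with a median of -1.65. Mt3 stood at 744 and 888 CPM against 3701 and 5051 (-3.23 ± 0.25, adjusted p = 9.53e-11). Thinned to 500 UMIs, it was seen in 25% and 40.9% of members and 73.2% and 85.6% of neuropil-transcript barcodes, with unthinned shares of 46.4% and 59.1%, and 93.2% and 93.3%. Mt1, another metallothionein, stood at 894 and 973 against 2354 and 3680 (-2.48 ± 0.23, adjusted p = 1.63e-09). Of the neuronal list, 13 of 17 were lower and Snhg11 alone was higher. The rule itself set neuronal genes against the members, so nothing is read from this count.

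Glutamate and lipid genes were split. Glul, the glutamine synthetase that astrocytes use to recycle glutamate, stood at 1107 and 888 CPM against 1518 and 2334 (-1.74 ± 0.23, adjusted p = 7.69e-07). Slc38a3, a glutamine exporter, was higher, at 124 and 123 against 13.5 and 21.0 (2.14 ± 0.44, adjusted p = 0.000655). In the glutamate and GABA list 1 of 11 was higher and 3 lower (Abat and Glud1 beside Glul). In the lipid list 1 of 17 was higher and 7 lower. Acsl3 was the higher one (1.09 ± 0.31, adjusted p = 0.0140). The fatty-acid and acyl-CoA binding proteins Fabp7 (-2.82 ± 0.37, adjusted p = 7.19e-07) and Dbi (-2.64 ± 0.26, adjusted p = 3.85e-09) were lower. Apoe, the main lipoprotein of astrocytes, stood at 4728 and 3531 against 4100 and 6788. It was lower with TMM (-1.15 ± 0.25, adjusted p = 0.00137) and not called with library totals (-0.33, adjusted p = 0.37), where the log2 ratio was 0.21 in R1 and -0.94 in R2. On library totals, the ratios of several other genes were also farther from 0 in R2: Gfap was at -1.33 in R1 and -2.14 in R2, Aldoc at -1.02 and -1.83, Glul at -0.45 and -1.39, Fabp7 at -1.16 and -2.79, Cpe at -0.97 and -1.49, Gpm6b at -0.56 and -1.37, and Kcnj10 at -0.21 and -1.68. Fgfr1 was at 2.08 and 1.38.

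In the list of water, potassium and ion balance, Dtna, a dystrobrevin of the end-foot complex, was the only one of 13 higher (0.95 ± 0.29, adjusted p = 0.0211), while the potassium channel Kcnj10 (-1.64 ± 0.47, adjusted p = 0.0140) and Mlc1 were lower. The Kcnj10 call was lost with library totals (-0.77, adjusted p = 0.28). Myoc was higher, at 195 and 623 against 54.2 and 156 (1.24 ± 0.32, adjusted p = 0.00643), while Gfap and S100b of the same list of 8 were lower. The growth factor receptor Fgfr1 was the only one of 14 receptors called (0.99 ± 0.34, adjusted p = 0.0404). In the matrix list 0 of 16 were higher and 3 lower: Cst3, Sparcl1 and the processing enzyme Cpe (-2.05 ± 0.22, adjusted p = 2.26e-08). Of 19 adhesion genes 1 was higher (Ncam1) and 4 lower, among them Gpm6b (-1.78 ± 0.21, adjusted p = 1.42e-07). Of 15 transcription factors 1 was lower (Nfix), of 8 reactive-astrocyte genes 1 (Gfap), and of 14 immediate-early genes 1 (Jund).

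For lists of other types, Olig2 was the only one of 10 OPC markers called (1.68 ± 0.50, adjusted p = 0.0193). A single barcode held 16 of its 20 UMIs in R1 and another 15 of 16 in R2. Without the 10 members rich in other types' RNA, an alternative chosen after seeing the data, Olig2 was at -3.12 (adjusted p = 0.11). In that alternative 0 of 7 OPC markers were higher and 2 lower, and all 5 oligodendrocyte, 5 erythroid and 2 neutrophil genes tested were lower. Of 6 oligodendrocyte markers 1 was higher (Cnp) and 2 lower, and 1 of 6 inhibitory neuron markers (Sst) and 1 of 2 choroid plexus markers (Ttr) were lower. In edgeR 0 of 3 connexins were called, with 1 at an unadjusted p under 0.05. The other lists with 0 calls in edgeR were Cajal-Retzius (0 of 1), ependymal (0 of 1), erythroid (0 of 5), T cell (0 of 4) and neutrophil (0 of 2), each with 0 at an unadjusted p under 0.05, and dividing (0 of 4), with 4. DESeq2 also called 0 in each of these lists.

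Over all genes, the largest differences by the naming rule were at low counts. Among the highest was Greb1, with 4 and 10 UMIs in members against 1 and 0, seen in 3 and 9 barcodes. Aspg had 5 and 6 UMIs against 0 and 0, at least 18.9-fold higher when 0 is read as 3 counts over the class. Among the lowest were Sult4a1, a brain sulfotransferase, with 0 and 0 UMIs against 123 and 16, at least 7.52-fold lower, and the activity-regulated gene Arc, with 1 and 0 against 61 and 24. The immunoglobulin gene Igkc, of B lineage cells, was also among them, with 4 and 1 against 224 and 138.

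**Figure D4:**
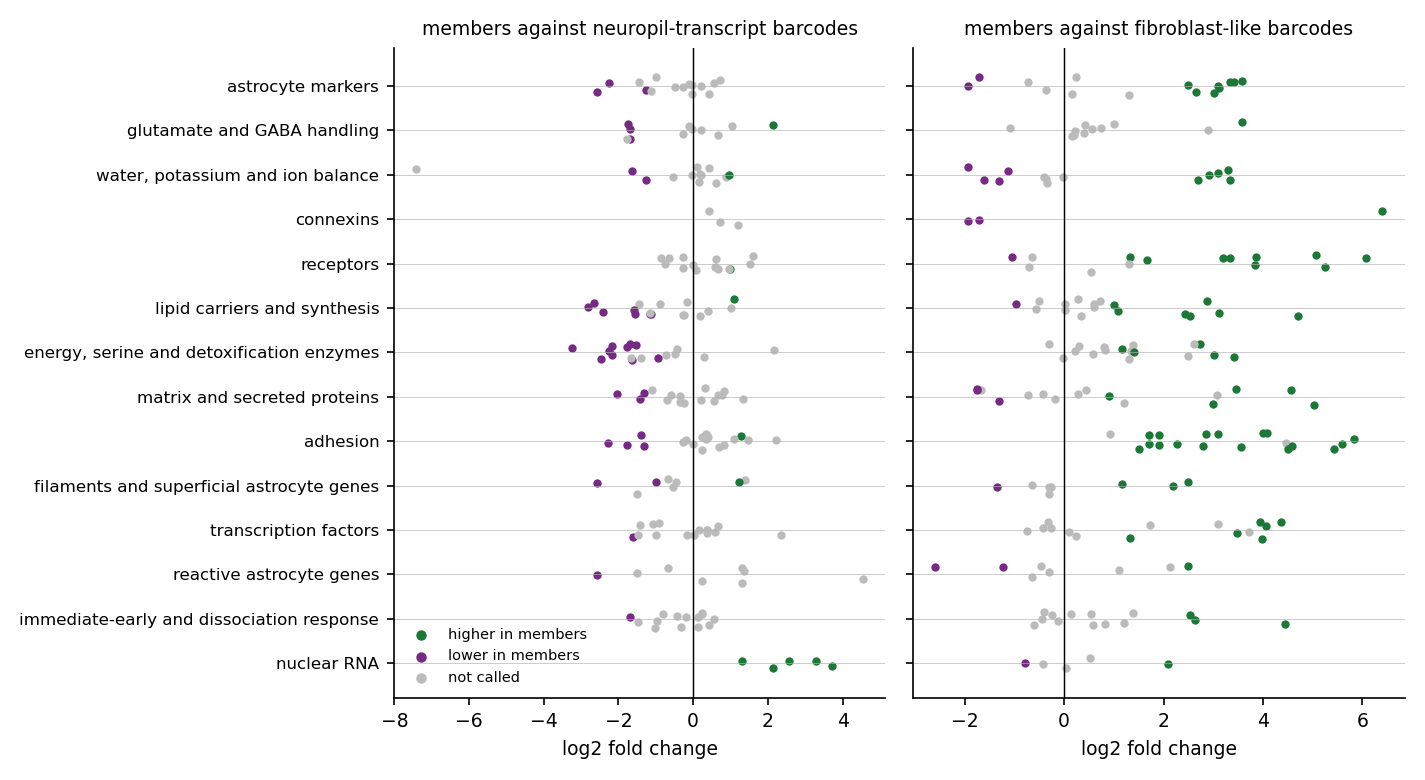
Each point is a tested gene of a functional or astrocyte list, placed by its log2 fold change between members and neuropil-transcript barcodes (left) or fibroblast-like barcodes (right), on the TMM scale. Green and purple points passed the test: 0 of 15 astrocyte markers are higher on the left (5 with library totals), where all 5 nuclear RNAs are, and 8 of 15 are higher on the right.

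The second comparison set members against fibroblast-like barcodes (498 in R1, 468 in R2), the main mesenchymal cells of this tissue, which share several carriers and connexins with astrocytes. Members had far more RNA for neural adhesion proteins, astrocyte enzymes and end-foot proteins, and less for Gja1 and Gjb6. Of 11613 genes 807 were higher (6.95%) and 599 lower (5.16%). All 807 higher calls held with library totals and with DESeq2's size factors, while 427 and 395 of the lower ones did. On those scales the numbers were 888 higher and 427 lower, and 952 and 395. The median over all genes moved from -0.14 to -0.0065 and 0.042.

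Of the 15 astrocyte markers 8 were higher and 2 lower, with a median of 2.49 beside -0.14 over all genes. Aqp4 stood at 150.5 and 264 CPM against 6.93 and 40.1 (3.09 ± 0.40, adjusted p = 2.04e-06). Aldoc stood at 558 and 472 against 47.1 and 41.0 (3.41 ± 0.29, adjusted p = 2.00e-09). Gfap stood at 283 and 397 against 44.4 and 65.7 (2.49 ± 0.29, adjusted p = 5.65e-07). In macrophage-like barcodes Gfap was at 44.6 and 66.6 and Aqp4 at 12.3 and 19.3 CPM, so the fibroblast-like values of Gfap lie at that background. Mlc1 (3.34 ± 0.55, adjusted p = 6.83e-05) and the GABA transporter Slc6a11 (3.57 ± 1.06, adjusted p = 0.0232) were higher too. Slc6a11 had only 3 and 4 UMIs in members. Acsbg1, Aldh1l1 and Cldn10 made up the 8.

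Some genes used as astrocyte markers in cortex were not higher than in fibroblast-like barcodes. The connexin 43 gene Gja1 stood at 469 and 189 CPM in members against 1205 and 758 (-1.71 ± 0.25, adjusted p = 1.34e-05). The connexin 30 gene Gjb6 stood at 274.5 and 217 against 1001 and 716 (-1.92 ± 0.24, adjusted p = 1.61e-06). Slc1a3 stood at 549 and 576 against 452 and 460 (0.17 ± 0.24, adjusted p = 0.74), and Glul at 1107 and 888 against 663 and 705 (0.41 ± 0.22, adjusted p = 0.28). Neither difference passed the test, and adjusted p-values of Slc1a3 over all alternatives stayed between 0.17 and 1.

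**Figure D5:**
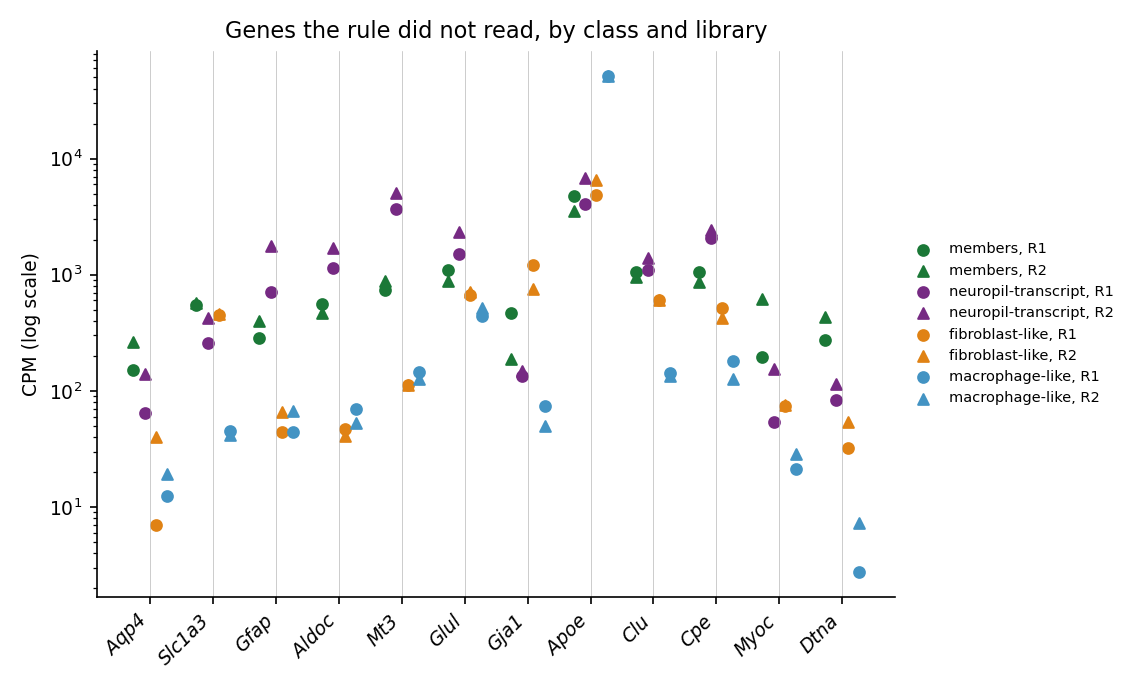
Points give CPM (log scale) of genes the rule did not read, in members, neuropil-transcript, fibroblast-like and macrophage-like barcodes, by library. Aqp4 stands highest in members in both libraries, Mt3 and Gfap in the neuropil-transcript class, and Gja1 in the fibroblast-like class.

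Adhesion genes were mostly higher: 17 of 19 passed the test in this direction and 0 in the other, with a median of 3.09. Ptprz1, a receptor phosphatase of glia, stood at 682 and 378 CPM against 22.9 and 19.6 (4.50 ± 0.29, adjusted p = 1.14e-11). It was seen in 23 and 22 members. An alternative chosen after seeing the data kept only members led by Slc1a2, Ntsr2 and Bcan and not rich in other types' RNA. In it 13 of 17 were higher.

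Receptors followed, with 9 of 14 higher and 1 lower (Fgfr1). Gpr37l1, a glial prosaposin receptor, stood at 345 and 378 CPM against 11.8 and 7.68 (5.08 ± 0.36, adjusted p = 5.32e-11). A single barcode held 18 of its 39 UMIs in R1 and another 18 of 40 in R2, and 11 and 14 members had a UMI of it. The glutamate receptor Grm5 (5.26 ± 0.67, adjusted p = 1.96e-06) was seen in 6 and 3 members. In the members led by Slc1a2, Ntsr2 and Bcan it stood at 2.30 (adjusted p = 0.44).

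In the list of water, potassium and ion balance 5 of 13 were higher (Mlc1, Hepacam, Aqp4, Dtna, Kcnj10) and 4 lower, among them Clcn2, Dag1 and Slc12a2. Dtna stood at 274.5 and 434 against 31.9 and 53.8 (2.91 ± 0.29, adjusted p = 4.23e-08). Of the energy list 5 of 17 were higher and 0 lower. Mt3 stood at 744 and 888 CPM against 112 and 112 (2.73 ± 0.26, adjusted p = 1.40e-08), with 7 of 17 higher with library totals. Of the lipid list 7 of 17 were higher and 1 (Abca1) lower. Fabp7 was at 2.53 ± 0.54 (adjusted p = 0.00146). The call for Fabp5 (4.70 ± 0.51, adjusted p = 1.45e-07) rests on 1 barcode of R2 that held 94 of its 105 UMIs.

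Of 15 transcription factors 6 were higher and 0 lower, among them Sox2, a factor of neural progenitors and glia (4.36 ± 0.65, adjusted p = 2.02e-05), and Rorb (3.48 ± 0.47, adjusted p = 4.20e-06). Of the 8 filament and superficial genes 3 were higher (Gfap, Myoc, S100b) and Id3 lower. Myoc stood at 195 and 623 against 73.5 and 75.1 (2.19 ± 0.30, adjusted p = 5.39e-06). S100b was at 1.16 ± 0.24 (adjusted p = 0.00119) and 0.22 (adjusted p = 0.74) without the 10 members rich in other types' RNA. The remaining lists were mixed: of 16 matrix genes 5 were higher and 3 lower, and 1 of 11 glutamate and GABA genes was higher. Of 8 reactive-astrocyte genes 1 was higher (Gfap) and 2 lower (Timp1, Cp). Of 14 immediate-early genes 3 were higher and 0 lower, and of 5 nuclear RNAs 1 was higher (Miat) and 1 lower (Neat1). The Miat call rests on R1: it had 21 UMIs there and 1 in R2, with ratios of 2.84 and -0.57.

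OPC and oligodendrocyte calls rested on few barcodes. Of 10 OPC markers 7 were higher, of 6 oligodendrocyte markers 4, and without the 10 members rich in other types' RNA 0 of 7 and 0 of 5 in edgeR. Olig1 had 29 and 18 UMIs in members, of which 1 barcode in each library held 27 and 14 (6.56 ± 0.52, adjusted p = 6.70e-10). Gjc3, the only higher connexin of 3, likewise had 17 of its 19 R2 UMIs in 1 barcode (6.40 ± 0.94, adjusted p = 2.36e-05). Tnr, a matrix protein, had 25 of 27 in R2 and 9 of 13 in R1 (5.02 ± 0.53, adjusted p = 1.44e-07), and stood at 1.68 (adjusted p = 0.45) without those members.

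Of 17 neuronal genes 10 were higher, and 2 of 17 when only the members led by Slc1a2, Ntsr2 and Bcan were kept. Of 6 inhibitory neuron markers 2 were higher (Npy, Gad2), as were Reln of the Cajal-Retzius list, 1 of 4 T cell markers and both tested neutrophil markers. The choroid plexus marker Kl was lower, at 0 and 0 UMIs against 71 and 31. In edgeR 0 of 4 dividing markers were called, with 0 at an unadjusted p under 0.05, 0 of 5 erythroid, with 2, and 0 of 1 ependymal, with 1, and DESeq2 called 0 in each. Without the 10 members rich in other types' RNA 4 of 5 erythroid genes were lower. Single-library log2 ratios were 3.98 in R1 and 2.64 in R2 for Aqp4, 1.37 and 3.01 for Myoc, 3.21 and 1.75 for Fabp7, and 0.80 and 1.67 for S100b.

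Among the largest differences over all genes was Adgrl3, an adhesion receptor gene of neurons and glia. It had 11 and 11 UMIs in 6 and 5 members against 2 and 1. Several others of the 10 highest (Tmem163, Chn2, Tubb4a and Gjc3) were held almost wholly by 1 barcode of R2, such as Tmem163 with 26 of 26 UMIs. Among the lowest were Lamb1, with 0 and 0 UMIs in members against 89 and 58 (at least 4.06-fold lower), Col4a5, with 1 and 0 against 147 and 86, and Lum, with 0 and 2 against 152 and 114.

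The third comparison split the members themselves at 1% Malat1: 37 and 32 barcodes against 19 and 12. It asked how members with much and with little nuclear RNA differed. Of 11097 genes 180 were higher (1.62%) and 137 lower (1.23%) in the Malat1-rich members. With DESeq2's size factors the numbers were 130 and 150, and with library totals 393 and 106. The median over all genes was 0.82 with TMM, 0.68 with DESeq2's size factors and 1.11 with library totals. Changes below are to be read against the median of 0.82. In simulated counts this fit called only 20% of genes lowered by 2 log2 units and 16% of those raised by 1. A list with 0 calls below is therefore not shown to be unchanged.

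Of 15 astrocyte markers 0 were called in edgeR, with 3 at an unadjusted p under 0.05, and DESeq2 called 1 (Aldoc, lower). Gfap was at 0.57 ± 0.47 (adjusted p = 0.53) and Slc1a3 at 0.45 ± 0.37 (adjusted p = 0.53), both under the median. Of 4 other nuclear RNAs 3 were higher. The split was itself made on a nuclear RNA, so these values describe the sets so chosen. Of the 17 Meg3- or Gria2-led barcodes, 16 lay on the Malat1-rich side of this split. Neat1, the scaffold of paraspeckles, stood at 918 and 943 CPM against 185 and 78.9 (2.55 ± 0.46, adjusted p = 0.000583). Kcnq1ot1 was at 2.28 ± 0.44 (adjusted p = 0.00128) and Snhg11 at 2.80 ± 0.49 (adjusted p = 0.000363). The R1 and R2 ratios were 2.29 and 3.53 for Neat1, 1.91 and 4.01 for Kcnq1ot1, and 2.0 and 5.77 for Snhg11. A single Meg3- or Gria2-led barcode held 81 of the 109 Snhg11 UMIs of the Malat1-rich members of R2. With only the members led by Slc1a2, Ntsr2 and Bcan, Snhg11 was at 3.12 (adjusted p = 0.00727).

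Acsl3 stood at 332.5 and 604 CPM in the Malat1-rich members against 26.5 and 52.6 (3.28 ± 0.67, adjusted p = 0.00243). Myoc stood at 266 and 928 against 53.0 and 78.9 (2.87 ± 0.61, adjusted p = 0.00318), and its adjusted p was 0.0536 with no library block. Zbtb20, a transcription factor of astrocytes and neurons, was the only one of 15 called (1.5 ± 0.39, adjusted p = 0.0205). Of 19 adhesion genes 2 were called, Cadm2 among them. The 10 largest differences in this direction included Ttc14, with 29 and 35 UMIs in 16 and 17 barcodes against 0 and 0 (at least 11.4-fold higher), and the ankyrin gene Ank3 with 20 and 15 against 0 and 0 (at least 6.15-fold).

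Metallothioneins went the other way. Mt3 stood at 612 and 353.5 CPM in Malat1-rich against 1006 and 1842 in Malat1-poor members (-1.80 ± 0.38, adjusted p = 0.00326). The log2 ratio was -0.72 in R1 and -2.37 in R2. At most 5% mitochondrial UMIs left Mt3 at -0.42 (adjusted p = 0.71). That setting kept only 6 and 2 Malat1-poor members, under the minimum of 10 per library planned for this split. The 2 of R2 were a barcode of 13180 UMIs and one of 10524, the latter 81.5% haemoglobin. The setting therefore cannot show how the mitochondrial share bears on Mt3. Mt1 was the other of 17 energy genes called (-1.40 ± 0.37, adjusted p = 0.0236), and with library totals it was at -1.12 (adjusted p = 0.0757). Its ratio was -0.32 in R1 and -2.04 in R2. Cst3, the cystatin C gene, stood at 2726 and 1267 against 6330 and 8524 (-2.18 ± 0.45, adjusted p = 0.00254). Its ratio was -1.21 in R1 and -2.75 in R2. A single barcode held 104 of its 444 UMIs in R1 and another 154 of 410 in R2. The mitochondrial share of the poor astrocyte-led set, given above, moved with these genes. So did markers of microglia, at 996 and 442 CPM in that set against 153 and 73.8 in the Malat1-rich one. They had 19 and 10 UMIs in 9 of 16 and 4 of 8 poor barcodes, and 1 R1 barcode held 10. What part the mitochondrial share or microglial RNA has in the result was not tested.

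Several other calls rested on few barcodes. All 5 erythroid and both tested neutrophil genes were lower in Malat1-rich members, and without the 10 members rich in other types' RNA 0 of 5 and 0 of 1 were called in edgeR. The lower H2-Aa, an antigen-presentation gene (-7.17 ± 1.14, adjusted p = 0.000125), rests on 1 barcode of R2 with 13180 UMIs that held 128 of its 137 UMIs. Of 10 OPC markers 2, and 2 of 6 oligodendrocyte markers were higher. Olig1 was at 2.67 ± 0.76 (adjusted p = 0.0417), and at -2.74 (adjusted p = 0.44) without the members rich in other types' RNA. Of 17 neuronal genes 3 were higher and Nefl lower, and Tnr and Cst3 were the 2 of 17 matrix genes called. In edgeR 0 calls were made among inhibitory neuron (0 of 5), ependymal (0 of 1), choroid plexus (0 of 2), dividing (0 of 4), T cell (0 of 4) and glutamate and GABA genes (0 of 11), each with 0 at an unadjusted p under 0.05. The lists of water, potassium and ion balance (0 of 12), connexins (0 of 3), receptors (0 of 14), reactive-astrocyte genes (0 of 7) and immediate-early genes (0 of 14) had 4, 1, 3, 2 and 2 genes at that level. DESeq2 called 0 in each of these.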

How the data were processed

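The deposited matrices hold unnormalized UMI counts. Their headers name Cell Ranger 4.0.0, and the submitters' processing notes name build mm10. The gene and barcode lists (unit: other, per the file headers) name 32287 features and the barcodes in matrix order. Every deposited barcode had at least 500 UMIs. How barcodes were selected before deposit is not given in the sources used here. Some genes of the lists are not reported here by name.

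The filter kept barcodes with 400 genes or more and 10% mitochondrial UMIs or less. Members came from the given rule. The other kept barcodes were assigned to the class (neuropil-transcript, fibroblast-, macrophage-, microglia-, endothelial- or mural-like) whose gene sum was at least 5 UMIs and above every other, and ties got no class. UMIs were added up within each class of each library (n = 2 libraries) and tested with edgeR 4.0.16 (quasi-likelihood F test, TMM, filterByExpr, library as a block, adjusted p under 0.05) in R 4.3.3. Adjustment ran over all tested genes, without those that chose members or classes, and without Malat1 in its own split. Single-library log2 ratios used library totals and a prior count of 2. CPM values are UMIs over the class total. DESeq2 1.42.0 was an alternative. Shares were counted in Python 3.11.15 with exact intervals from scipy 1.17.1. A count of 0 was read as up to 3 counts over the class. The fits were tested on simulated counts, with 50 genes changed by each amount. Of genes raised and lowered by 2 log2 units, 94% and 58% were called against the neuropil-transcript class. These were 94% and 62% against the fibroblast-like class and 88% and 20% in the Malat1 split. At 1 log2 unit they were 28% and 6%, 34% and 12%, and 16% and 2%. Median estimates in the Malat1 split lay 0.19 to 0.31 above the true change with TMM.

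The named genes were members of the astrocyte, OPC and functional lists, led by those with the largest called change in both libraries and at least 50 CPM, and the 10 largest changes in each direction. Genes outside the rule (Apoe, Slc1a3, Glul, Ptgds and H2-Aa among them) are list members or were chosen after their values were seen. The members and lists were chosen with earlier results of these data known. Gene positions are from GENCODE annotation of GRCm38.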

Additional observations from a re-analysis of the deposited data

Results flagged for a closer look

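Barcodes outside the filter also met the rest of the rule: 63 of 4288 in R1 (1.47%, exact 95% interval 1.13% to 1.88%) and 97 of 3705 in R2 (2.62%, 2.13% to 3.18%). They are named because they lie in data the comparisons did not use. A count of 0 would allow 0.0700% and 0.0810% there. That is a counting floor and no measure of free RNA, whose part was not tested. Of them 58 and 95 were over the mitochondrial limit, with a median mitochondrial share of 15.9% and 16.4% and a median of 959 and 970 UMIs. Slc1a2 stood at 7467 and 9250 CPM in them, but it is a gene of the rule, so its level is a description. Malat1 reached 1% in 6 and 6.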

How the results depend on the processing

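The mean share of members, 1.66%, ran from 1.45% to 1.87% in single libraries. It was 1.996% at most 5% mitochondrial UMIs, 0.714% with a 5-gene sum of at least 10, 2.79% with at least 3 UMIs of Slc1a2, Ntsr2 and Bcan alone, 2.26% with no limit on the 4 excluded genes and 1.45% at 1000 genes or more. Of the 168 members by the 3 genes alone, 88 were members here.

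The contrast with the neuropil-transcript class gave 1865 calls. It gave 1128 when barcodes were thinned to at most 1000 UMIs, 342 in Malat1-rich and 437 in Malat1-poor barcodes. The fibroblast-like contrast gave 1406, and 901 at most 5% mitochondrial UMIs, 758 thinned, 844 in Malat1-rich and 284 in Malat1-poor barcodes, and 752 in members led by Slc1a2, Ntsr2 and Bcan alone. The split at Malat1 gave 317, and 499 with library totals and 209 in those members alone. DESeq2 gave 951 higher and 220 lower in the fibroblast-like contrast and 106 and 214 in the Malat1 split, and no count filter gave 118 and 175 in the latter. The Malat1, other-type and library-total alternatives were chosen after seeing the data, and fewer genes were tested with thinning (7700) and in Malat1-poor barcodes (3165).

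Without the replicate block (library) the calls were 1771, 1229 and 245, and no count moved by over 1.5 times. With 2 libraries, leaving 1 out leaves no residual degrees of freedom within a comparison, so single-library ratios have no test. These ratios use library totals, so they change the scale as well: Apoe was at 0.21 without replicate 2 and -0.94 without replicate 1, beside -0.33 for both libraries on that scale. Directions turned against the neuropil-transcript class for Mlc1 (0.83), Kcnj10 (0.32), Gpm6b (0.24) and Slc1a3 (1.36) in Malat1-rich barcodes, for Slc1a3 with library totals (0.80), and for Olig2 without members rich in other types' RNA (-3.12) or with only those led by Slc1a2, Ntsr2 and Bcan (-2.92). In the same 2 settings Olig1 turned in the Malat1 split (-2.74 and -7.64). The causes were not tested, beyond the single barcodes named above. Of the values of named genes, 257 of 306, 269 of 287 and 101 of 117 in the 3 contrasts kept direction and call.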
